A study of Caenorhabditis elegans with 12 samples.

Results

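The 9 genes described here encode parts of the neuronal machinery that docks, primes and fuses synaptic vesicles in Caenorhabditis elegans: unc-13, unc-10, unc-18, unc-64, unc-31, unc-2, snb-1, snt-1 and ric-4. They were chosen by gene name from the 46778 genes of the deposited count table, each name matched 1 row, and all 9 passed the filter on low counts in every fit. Counts came from whole L3-stage larvae of 3 genotypes: strain N2 as wild type (WT), ced-3(n717) worms mutant for a caspase, and pmk-1(km25) worms mutant for a MAP kinase of the p38 family. Each mutant is represented by 1 allele, and the labels name no transgene. Larvae of all genotypes hatched without food for 24 h and then fed on OP50 bacteria for 18 h at 20 °C, a time set by when WT had reached L3. From each worm sample, total mRNA and ribosome-protected fragments (RPF, or footprints: the pieces of mRNA covered by ribosomes) were sequenced, which gave 2 mRNA and 2 RPF libraries per genotype.

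At a chemical synapse, vesicles filled with transmitter are held at the active zone of the presynaptic membrane and fuse when calcium enters. Fusion is driven by SNARE proteins, which zip together from the vesicle and the plasma membrane. Sec1/Munc18 proteins hold and template the SNAREs, Munc13 proteins open syntaxin so that a vesicle becomes ready to fuse, and synaptotagmin senses calcium. The same parts serve release at nerve-muscle junctions throughout the worm, and mutants in most of them move poorly, which gave many of the genes their unc (uncoordinated) names. Whole larvae hold many other tissues, so a lower level in a library can mean fewer neurons or less RNA per neuron, and these cannot be told apart in bulk samples.

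Each mRNA library held 15471380 to 17150137 counts in total and each RPF library 6708805 to 10115985. The log2 difference between replicates across genes had, for mRNA, an SD of 0.375 for WT, 0.55 for ced-3 and 0.595 for pmk-1, and of 0.462, 0.633 and 0.592 for RPF. The pmk-1 gene itself had 35.4 CPM (counts scaled to a common library size with TMM factors) of mRNA in pmk-1 worms and 36.3 in WT, and 25.2 against 49.8 CPM of RPF. The ced-3 gene had 5.93 CPM of mRNA in ced-3 worms and 3.66 in WT. Counts were summed over whole genes, so neither level checks which part an allele alters. All 13 neuron marker genes were detected in every group, with summed mRNA levels of 1771 and 1821 CPM in WT, 1781 and 1986 in ced-3, and 2037 and 1937 in pmk-1, of which unc-44 alone made up 1239 to 1496. The libraries of ced-3 stood apart in markers of other tissues. The 10 epidermis markers summed to 461 and 429 CPM of mRNA in WT against 1839 and 3769 in ced-3, with none at 0, and the 9 intestine markers to 5606 and 6056 against 4932 and 3842. By log2 fold, 8 epidermis markers lay above 0 and 2 below, with 3 called higher. Of the intestine markers 2 lay above 0 and 7 below, with 1 called lower, beside 1.77% of all genes called in either direction. Among these, the cuticle collagens rol-6, sqt-1 and sqt-3 rose by 3.89 ± 0.46, 3.88 ± 0.38 and 3.93 ± 0.40 (log2 fold ± SE) in ced-3 mRNA, and ifb-2, which encodes an intermediate filament of the intestine, changed by -1.60 ± 0.16 (edgeR adjusted p of 0.036 to 0.042). Fits without a WT library leave 1 in that group and cannot judge whether these 4 calls hold.

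The levels are given first per gene, as CPM divided by the length the reads could come from (exons in kb for mRNA, coding sequence in kb for RPF), since only such values can be compared between genes. In WT mRNA the highest levels belonged to ric-4, the SNAP-25 homolog of the plasma membrane, with 79.9 and 73.3 CPM per exon kb, and snb-1, the vesicle SNARE synaptobrevin, with 66.4 and 71.0. Next came unc-18, the Sec1/Munc18 partner of syntaxin, with 55.2 and 60.1 CPM per exon kb, and snt-1, the main synaptotagmin, with 42.2 and 39.9. The plasma membrane syntaxin unc-64 had 27.2 and 26.02. The 4 remaining genes encode large proteins and had less mRNA per length. unc-13, which makes vesicles ready to fuse, had 18.2 and 18.8 CPM per exon kb, and unc-2, the pore-forming subunit of a presynaptic calcium channel, had 10.6 and 9.41. unc-31, the CAPS protein needed for dense core vesicle release, had 8.84 and 8.32, and unc-10, the RIM scaffold of the active zone, had 7.57 and 7.64. No neighbours in this order overlapped between the WT libraries. Across all 6 mRNA libraries, ric-4 (66.6 to 81.5) overlapped snb-1 (66.3 to 84.1), and unc-10 (7.08 to 9.15) overlapped unc-31 (7.82 to 10.4) and unc-2 (7.91 to 12.6).

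Footprint levels split the genes more sharply. In WT, snb-1 had 146.5 and 185 RPF CPM per coding kb, ric-4 100.8 and 128, unc-18 73.0 and 65.4, unc-64 45.7 in both libraries, and snt-1 41.7 and 49.6. The other 4 genes all lay between 3.81 and 6.37 in WT. unc-31 had 5.36 and 6.37, unc-10 4.38 and 4.98, unc-2 4.91 and 4.28, and unc-13 4.30 and 3.81. unc-13, which ranked above unc-2, unc-31 and unc-10 in mRNA per length, thus had the lowest mean of the 9 in footprints per length in WT, although its libraries overlapped those of unc-2. Over all 6 RPF libraries the SNAREs, unc-18 and snt-1 held 41.7 to 206 CPM per coding kb, and the 4 large genes 3.81 to 7.40, with no overlap between these sets, which were formed after the values were seen.

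**Figure D1:**
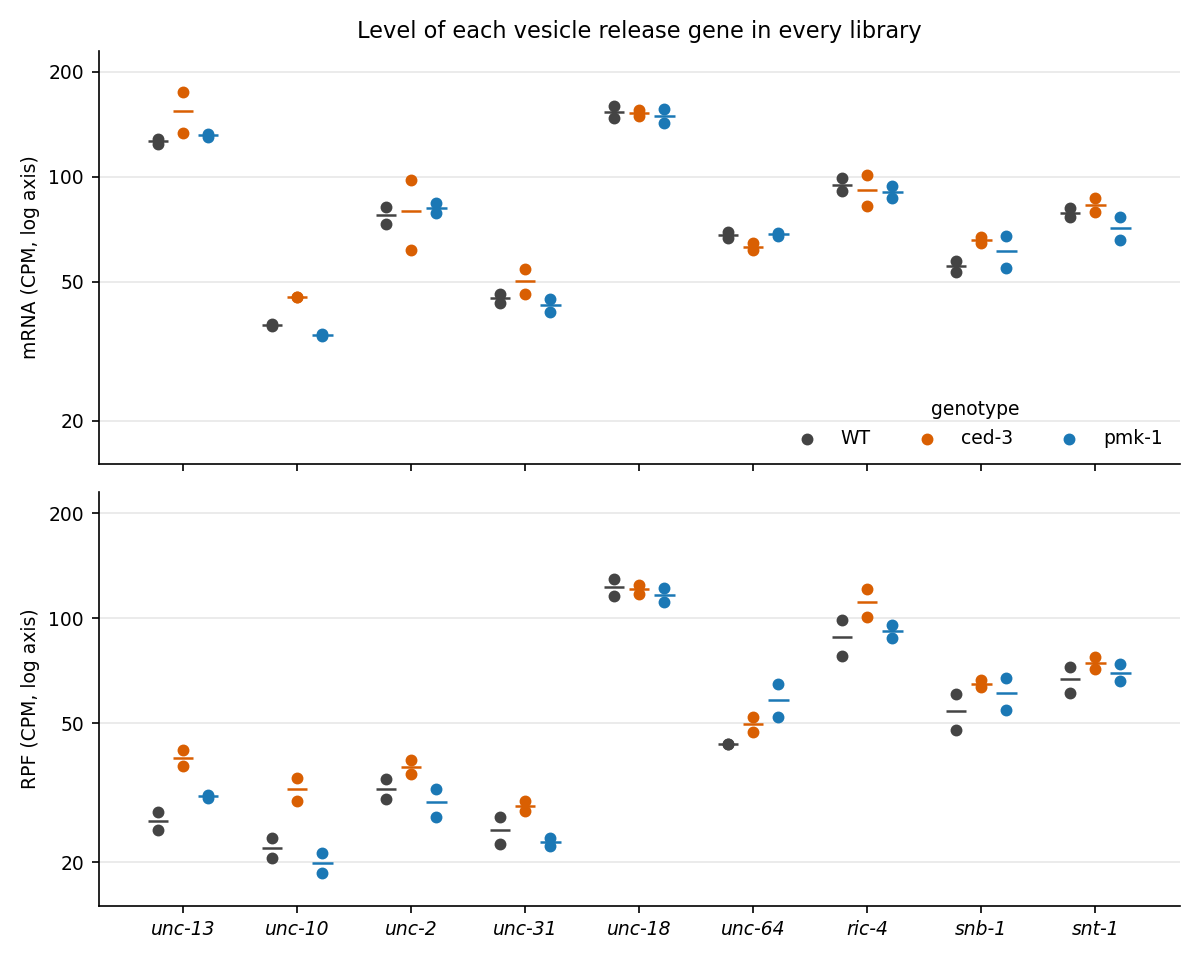
CPM of each gene in every library on a log axis, with mRNA above and RPF below; dots are libraries, short lines are the means of the 2 libraries of a genotype, and colours are genotypes. unc-13 lies between 125 and 175 CPM in mRNA and between 24.7 and 41.8 CPM in RPF, whereas unc-18 lies above 110 CPM in both.

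The genes sit at separate loci of the WBcel235 assembly (coordinates from the Ensembl annotation). The SNARE genes are short: snb-1 (chromosome V, 6655562 to 6656501, minus strand) has 327 coding bases, ric-4 (V, 10261131 to 10270314, minus) 774 and unc-64 (III, 13277258 to 13283887, plus) 954. unc-64 has 1613 exon bases outside its coding sequence, more than the 954 inside it, and 64 of its exon bases overlap set-25 on the opposite strand. snt-1 (II, 6810963 to 6816433, plus) has 1463 coding bases and unc-18 (X, 7682896 to 7686037, plus) 1773. unc-31 (IV, 12773867 to 12788354, plus) has 4217, unc-10 (X, 7272317 to 7280322, minus) 4695, unc-13 (I, 7422785 to 7454116, plus) 6474 and unc-2 (X, 2710920 to 2763526, minus) 7073. Coding bases are the union over a gene's annotated transcripts, which number 11 for unc-13, 15 for unc-2 and 19 for unc-31, so isoforms were not resolved.

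The first comparison of the design asks what differs in the caspase mutant. In ced-3 mRNA none of the 9 was called against WT by edgeR's quasi-likelihood test at an adjusted p of 0.05, beside 1.77% of all genes tested. Their log2 folds ran from -0.11 for unc-64 to 0.29 for unc-13, with a median of 0.08 against 0 over all genes. unc-10 mRNA was 37.5 and 37.8 CPM in WT, 45.3 and 45.1 in ced-3, and 35.5 and 35.0 in pmk-1. Its ced-3 libraries were thus above all others, and replicates differed by less than 1 CPM, but the log2 fold of 0.26 ± 0.10 did not pass (edgeR adjusted p = 0.194). unc-13 mRNA was 124.7 and 128.7 CPM in WT against 133.9 and 175.2 in ced-3, so that 1 of the ced-3 libraries stood close to WT (0.29 ± 0.15, edgeR adjusted p = 0.307). unc-2 mRNA was 82.1 and 73.2 CPM in WT, and the ced-3 libraries enclosed them at 61.6 and 98.2. Its log2 fold of 0.04 ± 0.23 became -0.33 without ced-3 replicate 2, -0.04 without WT replicate 2 and 0.33 without ced-3 replicate 1. Both ced-3 libraries lay above both WT libraries for 3 of the 9 genes (unc-13, unc-10 and snb-1), where 30.1% of all genes showed this, and below for 1 (unc-64), where 29.7% did.

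In footprints, too, no gene of the 9 was called between ced-3 and WT, beside 0.0554% of all genes. The log2 folds had a median of 0.23, against 0.01 over all genes, and ran from -0.02 for unc-18 to 0.60 for unc-13. unc-13 had 27.9 and 24.7 RPF CPM in WT, 37.7 and 41.8 in ced-3, and 30.6 and 31.2 in pmk-1. Here the ced-3 libraries were the highest, pmk-1 lay between and no groups overlapped; the fold of 0.60 ± 0.16 against WT had an edgeR adjusted p of 0.095. unc-10 had 20.6 and 23.4 RPF CPM in WT against 34.7 and 30.01 in ced-3, again without overlap (0.56 ± 0.18, edgeR adjusted p = 0.135). ric-4 had 78.03 and 98.95 RPF CPM in WT and 121 and 101 in ced-3, a narrow gap (0.33 ± 0.18). unc-18 was level, at 129.4 and 115.9 CPM in WT and 124.8 and 117.5 in ced-3. In all, both ced-3 footprint libraries lay above both WT libraries for 7 of 9 genes, all but unc-18 and snt-1, while this held for 29% of all genes; the 9 genes were read in the same 4 libraries, so they are not separate observations. Summed over the 9 genes, footprints were 465.6 and 496.9 CPM in WT and 570.7 and 549.4 in ced-3, and mRNA was 741.2 and 735.1 in WT and 762.1 and 811.1 in ced-3. The summed epidermis and intestine markers moved with this contrast, and their part in it was not tested. In footprints the epidermis markers summed to 831 and 687 CPM in WT against 2380 and 6112 in ced-3, and the intestine markers to 10180 and 9071 against 5747 and 4473. The median fold of the 9 genes in footprints was 0.18 to 0.36 when single libraries were left out, lowest without WT replicate 1 and highest without WT replicate 2. The 95% intervals of the single genes reached from -0.37 (unc-18) to 0.98 (unc-10), and those of unc-13 and unc-10 lay above 0 throughout.

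The p38 kinase mutant was compared with the same WT libraries. None of the 9 was called in mRNA (0.421% of all genes were) or in footprints (0.182%). The mRNA folds ran from -0.15 for snt-1 to 0.15 for snb-1, with a median of -0.04 against 0 over all genes. Both pmk-1 mRNA libraries were above both WT libraries for 1 of 9 genes, unc-13, where 22.5% of all genes showed this, and below them for 2 of 9, unc-10 and snt-1, where 23.6% did. In footprints they were above for 2 of 9, unc-13 and unc-64, where 22% of all genes were. unc-64 footprints were 43.6 CPM in both WT libraries, 47.3 and 52.1 in ced-3, and 64.7 and 52.0 in pmk-1, although its mRNA was 69.7 and 66.8 CPM in WT and 69.3 and 67.9 in pmk-1. Both pmk-1 libraries exceeded WT in footprints, but they differed from each other by more than the lower of them differed from WT (0.42 ± 0.16, edgeR adjusted p = 0.549). The footprint median of the 9 was 0.05, against 0.01 over all genes, and became -0.03 without WT replicate 1, -0.03 without pmk-1 replicate 2 and 0.14 without WT replicate 2. The 95% intervals of the 9 genes lay within -0.49 to 0.63 in mRNA and -0.57 to 0.82 in footprints.

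Between the mutants the calls over all genes were more numerous, 9.21% in mRNA and 8.61% in footprints, and none of the 9 was among them. unc-10 came closest, with a log2 fold of ced-3 against pmk-1 of 0.36 ± 0.10 in mRNA (edgeR adjusted p = 0.079) and 0.70 ± 0.18 in footprints (edgeR adjusted p = 0.060). Its footprints were 34.7 and 30.01 CPM in ced-3 and 18.6 and 21.2 in pmk-1. The footprint difference passed the threshold with DESeq2 (adjusted p = 0.042) and with no filter on low counts (edgeR adjusted p = 0.044). The medians of the 9 were 0.11 in mRNA and 0.28 in footprints, against 0 and 0.02 over all genes.

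**Figure D2:**
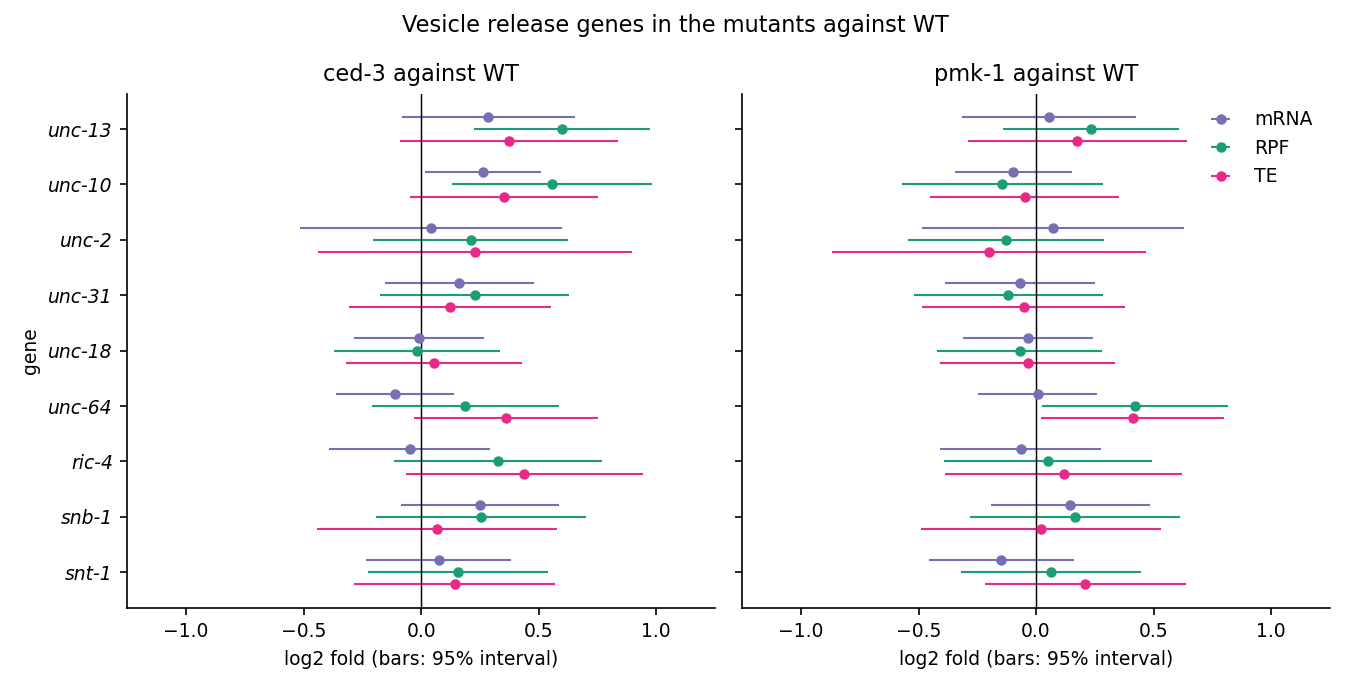
Log2 fold of each gene in ced-3 against WT (left) and pmk-1 against WT (right) for mRNA, RPF and translation efficiency (TE), with 95% intervals as bars; both panels use the same WT libraries. In ced-3 the RPF points of unc-13 (0.60) and unc-10 (0.56) lie farthest from 0, and in pmk-1 that of unc-64 (0.42).

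Translation efficiency (TE), the change in footprints beyond the change in mRNA, was not called for any of the 9 genes, nor for any gene of the table (0% in each of the 3 comparisons with edgeR). At an unadjusted edgeR p under 0.05 there were 221 genes for ced-3 against WT, 172 for pmk-1 against WT and 251 for ced-3 against pmk-1. Of the 13698 genes tested, more would fall under 0.05 if no gene differed, so the unpaired test was conservative. DESeq2 called 1, 5 and 2 genes. With worm samples paired, edgeR called 3, 2 and 4 genes, and with no filter on low counts 0, 2 and 0, none of them among the 9. Against WT, TE in ced-3 ran from 0.06 for unc-18 to 0.44 ± 0.22 for ric-4, with a median of 0.23 where all genes had 0.06. unc-18 and snb-1 (0.07) stood near the median gene, at percentiles 48.9 and 51.2 of all genes. unc-13 had 0.37 ± 0.21 and unc-64 0.36 ± 0.17. With worm samples paired, the unadjusted edgeR p was 0.015 for ric-4, 0.026 for unc-13 and 0.032 for unc-64 (edgeR adjusted p = 0.97 for each). For the other genes of the 9 it was 0.056 or more. In pmk-1 the TE folds ran from -0.20 for unc-2 to 0.41 ± 0.17 for unc-64, with a median of 0.02 against 0.01. Between the mutants the median was 0.18 against 0.06, and unc-10 had 0.40 ± 0.18. The lowest adjusted p over the 9 genes and all alternatives was 0.79, for unc-2 in ced-3 against pmk-1 with edgeR and worm samples paired, so these values are descriptions.

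The clearest pattern in these genes was within each genotype, between footprints and mRNA of the same worms. For this the 12 libraries were scaled together, so the shares below are not quotients of the CPM above, and 0 on the log2 scale stands for the bulk of genes. In WT, 7 of the 9 genes were called lower in RPF than in mRNA on this common scale, beside 19.6% of all genes. In ced-3 and in pmk-1 it was 6 of 9, beside 19.1% and 19.6%. No gene of the 9 was called higher, where 13.6%, 16.7% and 14.7% of all genes were in WT, ced-3 and pmk-1. The medians of the 9 were -0.86 for WT, -0.50 for ced-3 and -0.57 for pmk-1, where all genes had 0.01, 0.08 and 0.04.

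unc-13 had the lowest footprint share. Its RPF level was 19.4% and 16.4% of its mRNA level in the WT worm samples, 25.6% and 21.3% in ced-3, and 20.2% in both pmk-1 samples. All 6 lay below every sample of the other 8 genes. The log2 fold of RPF against mRNA was -2.48 ± 0.15 for WT (edgeR adjusted p = 2.4e-05), -2.11 ± 0.15 for ced-3 (4.4e-05) and -2.31 ± 0.15 for pmk-1 (2.7e-05). Its counts were 1933 to 2947 in mRNA and 207 to 386 in RPF.

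The other 3 large genes followed. For the calcium channel unc-2 the RPF level was 36.7% and 35.4% of mRNA in WT, 52.8% and 35.8% in ced-3, and 27.6% and 35.6% in pmk-1. ced-3 replicate 1 stood above the other 5 samples; unc-2 mRNA was lowest in the same worms. The folds were -1.47 ± 0.21 for WT, -1.24 ± 0.21 for ced-3 and -1.67 ± 0.21 for pmk-1 (edgeR adjusted p of 0.0005 to 0.0020). For the dense core vesicle factor unc-31 the share was 42.4% and 52.9% in WT, 55.3% and 49.1% in ced-3, and 46.8% and 45.1% in pmk-1, and the groups overlapped. Its folds were -1.07 ± 0.14, -0.95 ± 0.14 and -1.12 ± 0.14 (edgeR adjusted p of 0.0004 to 0.0009). For the scaffold unc-10 the share was 47.7% and 53.0% in WT, 69.7% and 59.4% in ced-3, and 45.3% and 52.2% in pmk-1. Here the ced-3 samples stood above the others. The folds were -0.99 ± 0.13, -0.63 ± 0.13 and -1.04 ± 0.13 (edgeR adjusted p of 0.0004 to 0.0042). In ced-3 the call was lost without ced-3 replicate 2, at a fold of -0.52, where calls over all genes fell as well. The difference between genotypes is the TE given above, which was not called.

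Among the genes of shorter proteins the shortfall was smaller. unc-64 had 54.3% and 56.0% in WT, below its other samples, which were 66.3% and 75.6% in ced-3 and 80.5% and 66.1% in pmk-1. Its folds were -0.86 ± 0.12, -0.50 ± 0.12 and -0.45 ± 0.12 (edgeR adjusted p of 0.0009, 0.012 and 0.019). unc-18 had 62.1% to 76.5% over the 6 worm samples and folds of -0.54 ± 0.12, -0.48 ± 0.12 and -0.57 ± 0.12 (edgeR adjusted p of 0.007, 0.011 and 0.005). Calls of unc-64 in the mutants and of unc-18 in each genotype were lost when single worm samples were left out, at folds of -0.325 to -0.594. With 1 worm sample left in a group, calls over all genes fell as well. snt-1 had 65.2% and 81.1% in WT, with a fold of -0.45 ± 0.13 (edgeR adjusted p = 0.028), and was not called in ced-3 (-0.31 ± 0.13) or pmk-1 (-0.24 ± 0.13). Its WT call was lost without either WT sample (folds of -0.327 and -0.577), where calls over all genes fell too. It was also lost with no filter on low counts (edgeR adjusted p = 0.051).

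The vesicle SNARE snb-1, at 77.8% to 91.5%, and ric-4, at 68.5% to 109%, were not called in any genotype. ric-4 was the one gene above 100%, at 109% in both ced-3 samples, against 68.5% and 93.4% in WT. With the worm sample as a replicate block, which pairs footprints and mRNA of the same worms, ric-4 passed in WT (-0.32, edgeR adjusted p = 0.030) and snt-1 in ced-3 (-0.31, 0.018). The paired count of the 9 genes called lower was then 8 for WT, 7 for ced-3 and 6 for pmk-1, while the shares over all genes were 26.7%, 26.6% and 26.7%.

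**Figure D3:**
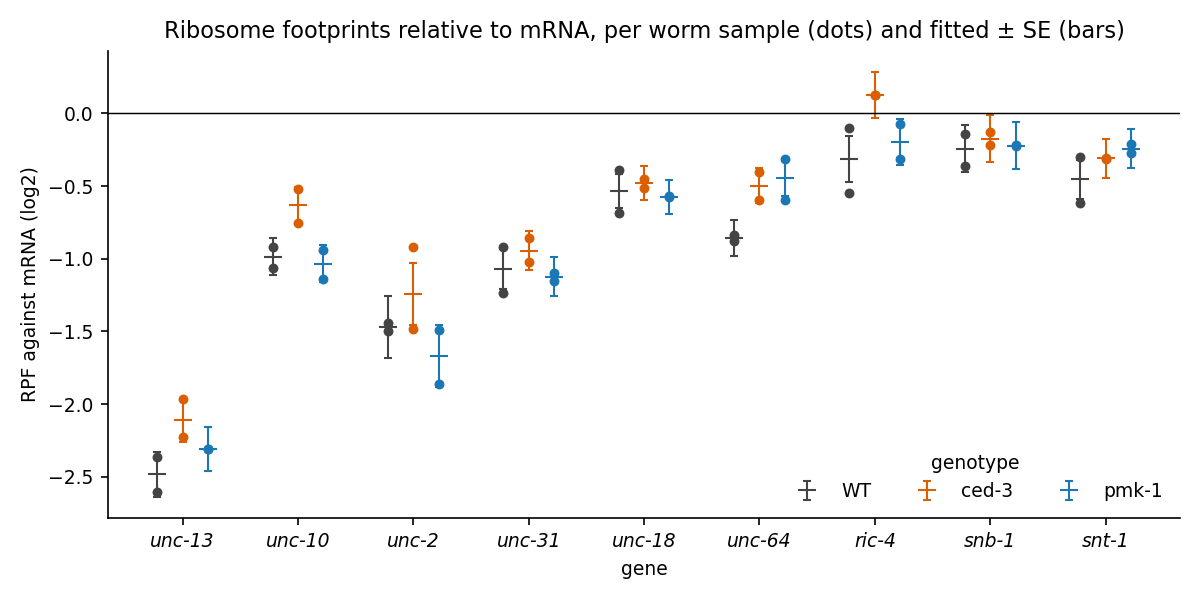
Log2 of RPF against mRNA for each gene and genotype, from the joint scaling of 12 libraries; dots are worm samples, and crossbars with whiskers are the fitted value ± SE. unc-13 lies near -2.5 to -2.0 in all 6 samples, and ric-4 reaches above 0 in ced-3.

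The 4 genes of over 4000 coding bases had the lowest values in WT, though the order did not follow length throughout: unc-64 lay below the longer unc-18 and snt-1, and unc-13 below the longer unc-2. Over the whole table the measure also differed with coding length. Protein coding genes were sorted into 4 classes of coding length, and in WT the median log2 fold of RPF against mRNA was 0.24 for the 5487 genes under 1000 bases, 0.02 for 5151 genes from 1000 up to 2000, -0.35 for 1952 genes from 2000 up to 4000 and -0.77 for 494 genes of 4000 and over. The shares called lower in these classes were 9.66%, 14.8%, 36.3% and 63.2%. Within its own class unc-13 stood at percentile 1.2 for WT, 1.4 for ced-3 and 1.6 for pmk-1, where 0 is the lowest gene. unc-2 was at percentile 11.4 in WT, unc-31 at 28.2 and unc-10 at 33.3, and all 3 thus lay in the lower part of the longest class. In ced-3 unc-10 was at 53.1, near the middle. The 5 shorter genes lay between percentile 11.2 (unc-64) and 24.7 (snb-1) of their classes in WT. On this scale, which is not divided by length, all 9 therefore lay below the median of their length class in WT.

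Coding length does not describe all the sequence that mRNA reads can come from. When RPF were taken per coding kb and mRNA per exon kb, relative to the median protein coding gene (a choice made after the data were seen), unc-13 stood at -2.75 in WT, unc-2 at -1.68, unc-10 at -1.26 and unc-31 at -1.11. unc-18 was then at -0.30 and snt-1 at -0.41. unc-64, whose exons lie mostly outside its coding sequence, turned to 0.22 for WT, 0.50 for ced-3 and 0.59 for pmk-1. snb-1 moved to 0.71 and ric-4 to 0.02 in WT. The class under 1000 bases then had a WT median of 0.35, so snb-1 lay above its class and unc-64 and ric-4 below it. On this scale the median of the longest class was -1.0 for WT, so unc-31 and unc-10 lay close to it, and in ced-3 unc-10 (-0.99) stood at the class median of -1.01. The signs of unc-64 and snb-1 depended on the scale in each genotype, and that of ric-4 in WT and pmk-1. Those of the 4 large genes did not.

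**Figure D4:**
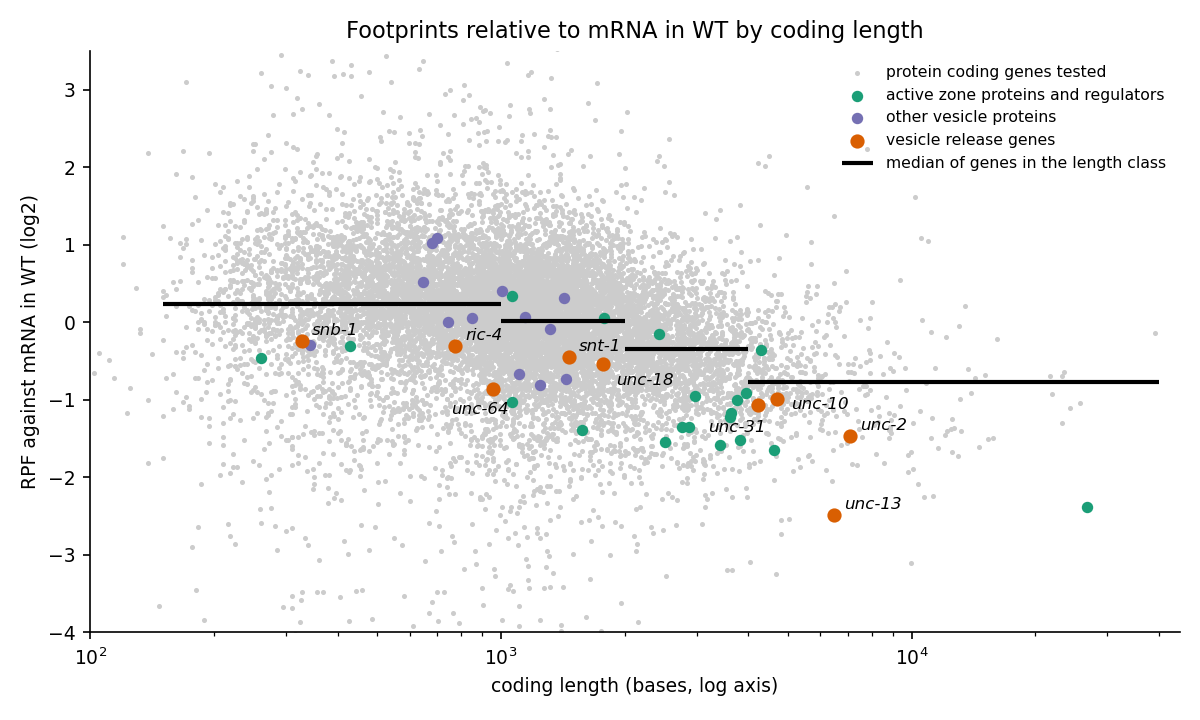
Log2 of RPF against mRNA in WT against coding length on a log axis, for all protein coding genes tested (grey; 151 lie outside the axes), the vesicle release genes (orange, named), active zone proteins and regulators (green) and other vesicle proteins (purple); black lines are the medians of the 4 length classes. unc-13, at -2.48, lies far below the line of its class at -0.77.

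Other genes of the presynaptic terminal gave the context. A list of 20 active zone proteins and release regulators had 14 genes called lower and 0 called higher in RPF against mRNA in WT. Over all genes 19.6% were called lower and 13.6% higher. The median of the list was -1.10, and 14 were lower in each mutant too (medians -1.16 and -1.34). Its median coding length was 2918.5 bases, against 1005 for the vesicle proteins below. The shares called lower were 36.3% from 2000 up to 4000 bases and 63.2% for 4000 and over. The part of coding length in the values of the list was not tested. Per coding and exon length the WT median was -1.28. The medians of the length classes still fell on that scale, to -0.52 from 2000 up to 4000 bases and -1.0 for 4000 and over. The following genes of these lists were chosen after their values were seen. cla-1, the very long Clarinet scaffold, stood at -2.38 ± 0.23, egl-8, a phospholipase C beta that promotes release, at -1.65 ± 0.14, and syd-2, the liprin-alpha that assembles active zones, at -1.59 ± 0.32. The scaffolds elks-1 and rimb-1, whose mammalian counterparts bind RIM, stood at -1.54 ± 0.14 and -1.52 ± 0.15 (edgeR adjusted p of 0.0001 to 0.0059 for all 5). The G protein alpha subunit goa-1, which restrains release, was not called, at 0.34 ± 0.18.

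A list of 13 further vesicle proteins was spread to both sides, with 3 genes called higher, 3 lower and a median of 0.06 in WT; over all genes 13.6% were called higher and 19.6% lower. rab-3, the vesicle GTPase that binds unc-10, had 1.09 ± 0.11, and the synaptophysin sph-1 1.03 ± 0.16 (edgeR adjusted p of 0.0002 and 0.0012). The synaptotagmins snt-2 and snt-5 had -0.67 ± 0.19 and -0.73 ± 0.18 (edgeR adjusted p of 0.022 and 0.013). Both calls were lost without either WT sample, where calls over all genes fell too. Genes that make and load transmitter had 3 of 14 called higher and 0 lower (median 0.30), endocytosis genes 3 of 10 higher and 4 lower (0.15), dense core vesicle genes 4 of 10 higher and 4 lower (-0.10), and axonal transport genes 2 of 8 higher and 4 lower (-0.45). Of 24 SNARE-cycle genes shared with other cells, 1 was higher and 4 lower (-0.19). The neuron markers had 3 of 13 higher and 6 lower (-0.21), so low footprint shares were not found in all neuronal genes. In the main edgeR fits no gene of these 8 lists was called in either mutant against WT, in mRNA, footprints or TE. Over all genes the shares called were 1.77% and 0.421% in mRNA for ced-3 and pmk-1, 0.0554% and 0.182% in footprints, and 0% in TE. Calls of the lists were not counted under the alternatives.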

How the data were processed

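The authors deposited 1 table of read counts per gene, as whole numbers with no normalization. Bowtie2, STAR and HTSeq and the build WBcel235 are named in the submitters' processing notes; the annotation release, the feature type counted and the use of strand are not given in the sources used here. Of 46778 rows, 46603 matched the Ensembl annotation of WBcel235 by WormBase identifier. Genes without coding sequence also had counts (1134 with at least 10 over the mRNA libraries), so reads were not restricted to coding genes.

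edgeR 4.0.16 in R 4.3.3 was used with TMM factors, filterByExpr (minimum count 10, minimum total 15), glmQLFit (robust) with glmQLFTest, and p-values adjusted by Benjamini-Hochberg over every gene of the fit, at a threshold of 0.05. The 6 mRNA libraries (13536 genes), the 6 RPF libraries (12633) and all 12 (13698; TE as the interaction of genotype and assay, and RPF against mRNA) were fitted separately. The SE is the size of the log2 fold divided by the square root of F, and intervals are 95%. Alternatives were RLE factors, DESeq2 1.42.0, no filter, no robust option, a replicate block, the compared groups alone and leaving out libraries. A group left with 1 library was assumed to vary like the others.

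The labels state that RPF and mRNA came from the same sample, which pairs them; the correlation of their deviations, across genes, was 0.17 for WT, 0.62 for ced-3 and 0.66 for pmk-1. Replicates are called biological, but separate cultures are not stated, so p-values measure the spread between these samples. Members and lists were chosen with earlier results of these data known. Named genes are the 9 members, the mutated genes and, per list and mutant comparison, up to 3 called genes with the largest fold; other list genes named for RPF against mRNA were chosen after their values were seen.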

Additional observations from a re-analysis of the deposited data

How the results depend on the processing

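The calls of unc-13, unc-2 and unc-31 in RPF against mRNA held in each genotype under every alternative fitted. Over the 9 genes and all comparisons, leaving out a library or worm sample changed the sign of 43 of 648 values, none of them called. Some calls also ended, but with 1 worm sample left in a group, calls in RPF against mRNA fell over the whole table too. Such a loss is therefore not particular to these genes. Other alternatives changed the sign of 1 of 594 values, ended 1 of 95 calls and added 4. The number of the 9 called in RPF against mRNA in ced-3 fell when either ced-3 worm sample was left out, as it did over all genes. For RPF in ced-3 against pmk-1, 1 gene (unc-10) was called with DESeq2 and 1 with no filter on low counts. When libraries were left out, the median fold of the 9 was 0.048 to 0.22 for mRNA in ced-3 against WT, 0.13 to 0.29 for RPF in ced-3 against pmk-1, 0.18 to 0.36 for RPF in ced-3 against WT and -0.03 to 0.14 for RPF in pmk-1 against WT. The fold of unc-2 in mRNA of ced-3 against WT was -0.33 to 0.33 without single libraries. Per coding and exon length, unc-64 turned to 0.22 for WT, 0.50 for ced-3 and 0.59 for pmk-1. The length of its exons outside the coding sequence enters by construction. Signs also changed for snb-1 in each genotype and for ric-4 in WT and pmk-1, neither of them called in the main fits. The collagen and ifb-2 calls were lost with the replicate block, where 0 of 13536 genes were called, so that fit does not single them out. Fits without a WT library leave 1 in that group and cannot judge these calls either. The RPF difference of pmk-1 in its own mutant (-0.98 ± 0.15, edgeR adjusted p = 0.136) passed with DESeq2 and with no filter.

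The replicate number as a replicate block across genotypes changed no call of the 9 genes; same-numbered deviations correlated at -0.10 to 0.11, and the labels give the number no shared batch. With the worm sample as replicate block, which is paired by the labels, the genes called in RPF against mRNA were 8, 7 and 6 in place of 7, 6 and 6, and over all genes 7177 in place of 4552 for WT, 7878 in place of 4913 for ced-3 and 7449 in place of 4703 for pmk-1. Counts over all genes depended strongly on the setting. For ced-3 against WT, mRNA calls were 240, with 1337 under DESeq2, 827 with no filter, 403 without the robust option and 0 without either WT library; RPF calls were 7, with 1314, 1012, 327 and 0. For pmk-1 against WT, mRNA calls were 57, with 377 under DESeq2, 221 with no filter, and 2 without either WT library; RPF calls were 23, with 281, 212 and 0. For ced-3 against pmk-1, mRNA and RPF calls were 1247 and 1088, with 2079 and 1916 under DESeq2, 564 and 496 with the replicate block, 3 and 0 without either WT library, and 0 and 0 with the compared groups alone. With the replicate block, ced-3 against WT had 0 calls in both assays, and pmk-1 against WT 27 and 0.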
